A study of Mus musculus with 14 samples.

Results

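The cytosolic ribosomal protein genes are described here in stromal populations sorted from mouse lung. Every probe whose gene symbol is Rpl or Rps followed by a number, or is Rpsa, Rplp0, Rplp1 or Rplp2, was taken, without the ribosomal S6 kinases and without pseudogenes marked "-ps". Of 45281 probes on the array, 96 met this rule, and 79 of them were detected (p under 0.05) on 2 arrays or more. They represent 57 genes with a kept probe, out of 65 genes matched by symbol and out of 12444 genes tested in all. Of the 57 genes, 20 encode small subunit proteins, 30 encode large subunit proteins and 7 are paralogs or namesakes of a subunit gene (Rpl3l, Rpl7l1, Rpl22l1, Rpl36al, Rps27l, Rps4l and Rps19bp1).

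The cells came from Foxd1-Cre;Rosa26-tdTomato;Coll-GFP mice, in which Cre driven by Foxd1 marks the Foxd1 lineage with tdTomato and a collagen reporter marks matrix-producing cells with GFP. Peri cells carried tdTomato alone, PeriFibro cells carried tdTomato and GFP, and Fibro cells carried GFP alone. At day 7 after 0.8 U/kg of intratracheal bleomycin, an agent that injures the lung and leads to fibrosis, the Peri population had 2 arrays, PeriFibro 3 and Fibro 3, all from male mice, and after saline (uninjured) there were 2 arrays of each population, all from female mice. Injury and sex therefore cannot be told apart, and because no label ties the arrays of a group to different animals, p-values measure only the spread between these arrays. Outlying samples were left out of the published analysis, and whether any of the 14 arrays is one of them is not given in the sources used here.

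Ribosomal proteins surround the ribosomal RNA of the small subunit, which decodes the message, and of the large subunit, which joins amino acids. Their mRNAs are among the most abundant of a mammalian cell, and many begin with a terminal oligopyrimidine tract, a C at the cap followed by pyrimidines, through which mTORC1 and the RNA-binding protein Larp1 control their translation. Transcription of many of these genes in mammals depends on promoters without a TATA box that hold sites for general activators.

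Labelled identity and marker signal differed in part. Of 7 pericyte markers, Pdgfrb, Kcnj8, Notch3 and Mcam were detected on 2 of 2 uninjured Peri arrays, Cspg4 and Abcc9 on 1 and Rgs5 on 0, with a summed linear signal of 279 to 442 in uninjured Peri and 3230 to 4630 in uninjured PeriFibro cells. Of 7 fibroblast markers, Dcn and Dpt were detected on 2 of 2 uninjured Peri arrays, Pdgfra on 1, and Col1a1, Col1a2, Col3a1 and Lum on 0. The summed linear signal of 7 neutrophil markers was 45200 to 65400 in uninjured Peri and 1700 to 1890 in uninjured PeriFibro cells, with 7 of 7 higher in Peri, and that of 6 measured T and NK cell markers was 16400 to 19000 in Peri and 383 to 452 in PeriFibro, with 6 of 6 higher. The summed signal of 8 endothelial markers was 2630 to 4170 in Peri and 75100 to 82400 in PeriFibro, with 8 of 8 lower in Peri. Of 8 pan-leukocyte markers 8 were higher in Peri (summed signal 59100 to 60700, against 8360 to 13500 in PeriFibro). Macrophage markers were lower in Peri (353 to 454, against 1520 to 3020), with a median log2 difference of -2.9 and 1 of 7 above 0. These markers differed in the same contrast as the ribosomal protein genes described below, and their part in the results was not tested. PeriFibro bleomycin 3 and Fibro bleomycin 2 stood apart from their groups, and the 2 uninjured Fibro arrays from each other. Pearson correlations across genes were 0.923 to 0.947 in these pairs, against 0.973 to 0.984 between other arrays of the same group. The single correlation of the uninjured Fibro arrays (0.931) cannot say which of them stood apart. Fibro uninjured 2 is counted as such below, where it shares high levels of mitochondrial ribosomal protein genes with PeriFibro bleomycin 3 and Fibro bleomycin 2. On all 14 arrays 39.38% to 44.36% of probes were detected, and medians of the unnormalised signal lay between 88.8 and 128.6.

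The ribosomal protein genes were among the brightest signals of every population. Between 15 and 31 of their probes stood among the 100 brightest of each array. With each array's median subtracted, their summed unnormalised signal was 4.29% to 10.7% of that of the probes detected on the array. Levels below are log2 signals after background correction and quantile normalisation, and a level of one probe cannot be set against that of another. Of the 57 genes, 55 were detected on all 14 arrays. Rpl22l1 was not detected on Peri bleomycin 1 and Rps15a was not detected on Fibro bleomycin 2. The mean level was 12 or more for 42 genes and under 8 for 5 genes. The probes with the highest mean signal were those of Rplp1 (14.79), Rps29 (14.67) and Rpl41 (14.61), and those with the lowest were Rps15a (6.0), Rpl22l1 (6.07) and Rps19bp1 (6.44).

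Rplp0, Rplp1 and Rplp2 form the stalk of the large subunit that recruits translation factors. Rplp1 had group means between 14.65 and 14.87 and Rplp2 between 13.90 and 14.29. The Rplp0 probe was dim, with group means of 6.99 in uninjured PeriFibro to 8.30 in bleomycin Fibro cells and single arrays of up to 9.47. No kept probe represented 8 genes (Rpsa, Rpl6, Rpl14, Rpl17, Rps20, Rps23, Rpl39l and Rps23rg1), and the unnormalised signals of their probes stayed at or below 131.6 on every array. Rpsa, the laminin receptor of the small subunit, had 1 of its 2 probes detected on 1 array. Rpl7 and Rps27, the core genes of which Rpl7l1 and Rps27l are paralogs, were not analysed here.

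When each gene was centred on its own mean over the 14 arrays, the median of the 57 genes was 0.22 and 0.25 on the 2 uninjured Peri arrays, -0.39 and -0.25 on the 2 uninjured PeriFibro arrays and -0.039 and 0.25 on the 2 uninjured Fibro arrays. At day 7 it was 0.045 and 0.14 in Peri, -0.27, -0.11 and 0.19 in PeriFibro, and -0.18, 0.14 and 0.049 in Fibro cells. The uninjured PeriFibro arrays were the lowest group, and the highest array of the bleomycin PeriFibro group was replicate 3, which stood apart. The order of the group means was uninjured Peri (0.24 ± 0.027, SD, n = 2), uninjured Fibro (0.11 ± 0.21, n = 2), bleomycin Peri (0.091 ± 0.065, n = 2), bleomycin Fibro (0.0049 ± 0.17, n = 3), bleomycin PeriFibro (-0.061 ± 0.23, n = 3) and uninjured PeriFibro (-0.32 ± 0.10, n = 2). The ranges of every pair of neighbours in this order overlapped, so none of them differed beyond its spread.

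**Figure D1:**
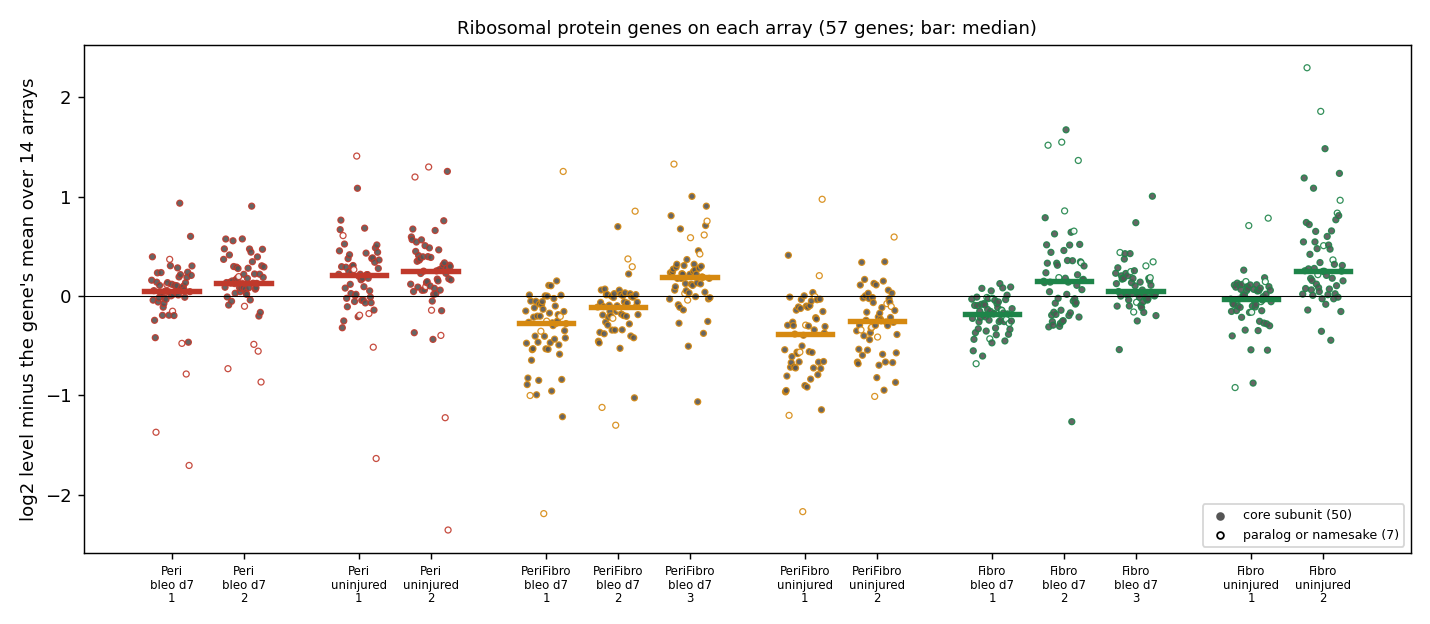
Each point is 1 of 57 ribosomal protein genes on 1 array, plotted as its log2 level minus its mean over 14 arrays, and bars are array medians. Filled points are core subunit genes and open points are paralogs or namesakes; both uninjured PeriFibro medians (-0.39 and -0.25) lie below 0 and both uninjured Peri medians (0.22 and 0.25) above it.

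By group mean, 30 of the 57 genes were highest in uninjured Peri cells and 39 were lowest in uninjured PeriFibro cells. No gene was lowest in uninjured Fibro cells, and 10 were lowest in bleomycin Fibro cells. The 72 mitochondrial ribosomal protein genes, a separate set that serves the organelle's own ribosome, did not follow this order. Their centred medians were -0.12 and -0.35 on the uninjured Peri arrays and -0.10 and -0.037 on the uninjured PeriFibro arrays. They reached 0.634 and 0.669 on PeriFibro bleomycin 3 and Fibro bleomycin 2, which stood apart, and 0.641 on Fibro uninjured 2. Fibro uninjured 2 was counted with those arrays because of this level, so for it the match holds no information. On each of the other 11 arrays they were 0.0446 or less.

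Before injury, Peri and PeriFibro cells were compared, the sorts labelled with tdTomato that differ by label in the collagen reporter. Their neutrophil, T and NK cell and endothelial markers also differed, as given above. Among the ribosomal protein genes, 8 were higher in Peri cells and 1 was lower by 2-fold or more with an adjusted p under 0.05 (limma, Benjamini-Hochberg over 12444 genes). Of all genes tested, 10.2% were called higher and 14.6% lower. Without a fold threshold 12 members were higher, where 11.4% of all genes were. The median log2 difference of the 57 genes was 0.51, against -0.046 for all genes, and 50 of the 57 differences were above 0 (87.7%, against 47.3% of all genes). An unadjusted p under 0.05 was found for 22 members (38.6%, against 36.4% of all genes, limma). Both Peri arrays lay above both PeriFibro arrays for 42 members (31.0% of all genes) and below them for 4 (37.0% of all genes). The small subunit had a median of 0.66 (19 of 20 above 0), the large subunit 0.51 (27 of 30 above 0) and the paralogs 0.18 (4 of 7 above 0). In bulk samples such as these, a different mix of cells and a different amount of RNA per cell cannot be told apart.

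The 7 core subunit genes called higher in Peri cells before injury are shown with their start regions. They were chosen by that call, and shared control of them was not tested. The stretches are those of Rps6 (chr4:86857348-86857447, minus strand), Rpl12 (chr2:32961632-32961731, plus strand), Rpl19 (chr11:98026630-98026729, plus strand, the first of its 2 listed starts), Rpl4 (chr9:64173307-64173406, plus strand), Rpl24 (chr16:55966195-55966294, plus strand), Rps13 (chr7:116334171-116334270, minus strand) and Rps15 (chr10:80292351-80292450, plus strand), beside the paralog Rpl3l (chr17:24727746-24727845, plus strand, the first of its 2 listed starts). They are RefSeq sequences of build GRCm38.p6, 80 bases before the annotated start and 20 from it on. Capitals mark CGGAAG or its reverse complement, the core letters bound by Ets family factors such as GABP, and a C within 5 bases of the start that is followed by at least 4 pyrimidines.
Rps6: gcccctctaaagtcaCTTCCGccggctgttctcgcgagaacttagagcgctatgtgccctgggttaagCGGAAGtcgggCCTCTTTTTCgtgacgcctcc
Rpl12: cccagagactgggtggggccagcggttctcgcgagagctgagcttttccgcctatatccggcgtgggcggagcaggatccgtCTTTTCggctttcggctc
Rpl19: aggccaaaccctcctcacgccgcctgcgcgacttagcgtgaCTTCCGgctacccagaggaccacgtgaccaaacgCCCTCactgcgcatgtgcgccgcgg
Rpl4: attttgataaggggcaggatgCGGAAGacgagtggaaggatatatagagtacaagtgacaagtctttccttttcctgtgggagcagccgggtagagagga
Rpl24: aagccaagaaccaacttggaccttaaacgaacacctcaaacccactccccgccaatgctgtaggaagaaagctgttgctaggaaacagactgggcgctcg
Rps13: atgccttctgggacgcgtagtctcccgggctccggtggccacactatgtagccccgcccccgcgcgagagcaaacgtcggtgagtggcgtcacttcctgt
Rps15: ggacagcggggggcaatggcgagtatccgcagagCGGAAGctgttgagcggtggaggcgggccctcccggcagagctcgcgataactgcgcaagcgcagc
Rpl3l: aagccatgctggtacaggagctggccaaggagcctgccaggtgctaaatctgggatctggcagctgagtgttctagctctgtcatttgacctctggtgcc
The stretches of Rpl24, Rps13 and Rpl3l hold neither feature. Windows from 250 bases before to 50 after the start were found for 48 of the 57 genes. Each of the 7 called core genes (Rpl12, Rpl19, Rpl24, Rpl4, Rps13, Rps15 and Rps6) had CGGAAG on either strand in a window, with 3 copies in Rps6. Among windows of core subunit genes 33 of 50 held it (66%), against 40 of 75 windows of mitochondrial ribosomal protein genes (53.3%) and 16.9% of 32851 windows of all genes. The pyrimidine run at the start, searched on the sense strand, was present in 22 of 50 core windows (44%) and 18.3% of all windows. TATAAA on the sense strand was present in 4 of 50 core windows (8%) and 8.32% of all windows. CGGAAG was present for 31 of the 42 core genes with a window, whether or not the gene passed the test.

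Rps6, the small subunit protein phosphorylated by S6 kinases downstream of mTORC1, had levels of 13.06 and 12.93 in uninjured Peri cells, against 11.96 and 11.75 in uninjured PeriFibro cells. The groups did not overlap, and the difference was 1.14 ± 0.24 log2 units (SE; 2.2-fold, adjusted p = 0.0033, limma). Rpl12, which sits at the base of the stalk, had 13.83 and 13.97 in Peri against 12.41 and 12.71 in PeriFibro (2.53-fold, adjusted p = 0.0066, limma). For both genes each Peri array was brighter than each PeriFibro array.

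Rpl4, a protein that lines the exit tunnel of the nascent chain, had 10.50 and 9.90 in Peri against 9.02 and 9.12 in PeriFibro cells (2.19-fold, adjusted p = 0.0079, limma). Rpl19, which reaches across to the small subunit, had 12.74 and 12.65 in Peri against 11.17 and 11.44 in PeriFibro (2.63-fold, adjusted p = 0.013, limma). Rpl24, likewise at the interface of the subunits, had 13.04 and 13.06 in Peri against 11.80 and 11.92 in PeriFibro (2.28-fold, adjusted p = 0.0058, limma). The Peri arrays were the higher ones without overlap for each of these large subunit genes.

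In the small subunit, Rps13 had 14.13 and 13.70 in Peri against 12.61 and 12.86 in PeriFibro cells (2.26-fold, adjusted p = 0.024, limma). Rps15, a protein of the subunit's head, had 12.89 and 12.61 in Peri against 11.89 and 11.51 in PeriFibro (2.07-fold, adjusted p = 0.044, limma). The core genes Rpl10a, Rps7, Rps26 and Rpl29 passed the adjusted p alone, with differences of 0.61 to 0.86 log2 units. The count of 9 members called fell to 3 without PeriFibro uninjured 1 and to 4 without Peri uninjured 1, and to 4 when arrays were scaled to a common median in place of quantile normalisation, while the median difference then moved to 0.88. Rps15 lost its call in 13 of 26 alternative settings, among them each omission of an uninjured Peri or PeriFibro array (adjusted p = 0.082 to 0.22, limma). Rpl19 also lost its call without Peri uninjured 2 (adjusted p = 0.058, limma) and Rps13 without PeriFibro uninjured 2 (adjusted p = 0.064, limma), whereas Rps6 and Rpl24 kept theirs whichever single array was left out but lost them with median scaling (adjusted p = 0.09 and 0.076, limma). Rpl12 was the only core gene of the 7 that passed under that scaling (adjusted p = 0.037, limma). Without the 3 arrays that stood apart, 14 members were called.

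**Figure D2:**
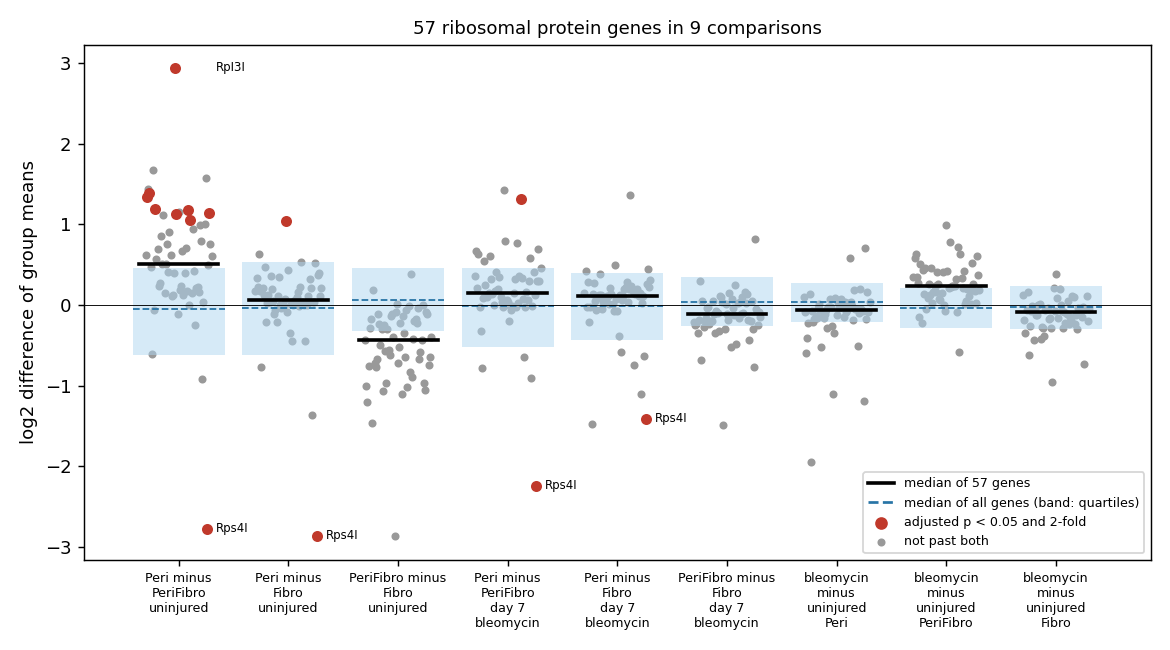
Log2 differences of group means of the 57 ribosomal protein genes (points) in 9 comparisons, with the median of the 57 (black) and the median and quartiles of 12444 genes (blue). Red points passed an adjusted p of 0.05 and 2-fold; the median of the 57 is 0.51 for Peri minus PeriFibro and -0.44 for PeriFibro minus Fibro in uninjured mice.

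The size of the difference between uninjured Peri and PeriFibro cells varied with the brightness of the probe. For the 15 members with a mean level under 12 the median log2 difference was 1.12, for the 8 between 12 and 13 it was 1.00, for the 17 between 13 and 14 it was 0.62, and for the 17 at 14 or above it was 0.17. In the brightest class the differences ran from -0.11 to 0.61, and 0 of 17 were called. Rps29, Rpl41 and Rps14 had group means within 0.08, 0.11 and 0.12 of each other over the 6 groups, the narrowest ranges of all members. The part of brightness in these differences was not tested.

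Further probes of the same genes gave a related picture. The 16 genes with more than 1 kept probe had 22 other probes, of which 16 had the same sign as the representing probe in this comparison and 15 a larger difference. Rpl23 was one where the probes differed in sign. Its representing probe (mean level 14.41) had a difference of -0.065, while a dimmer probe (9.08) had 9.73 and 9.48 in uninjured Peri against 8.41 and 8.33 in uninjured PeriFibro cells (1.24, adjusted p = 0.0047, limma over all kept probes). For Rpl38 the representing probe (14.52) differed by 0.0014 between uninjured Peri and Fibro cells, and its second probe (9.21) by -1.15 (adjusted p = 0.18, limma). Whether these probes read the same transcripts was not tested.

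**Figure D3:**
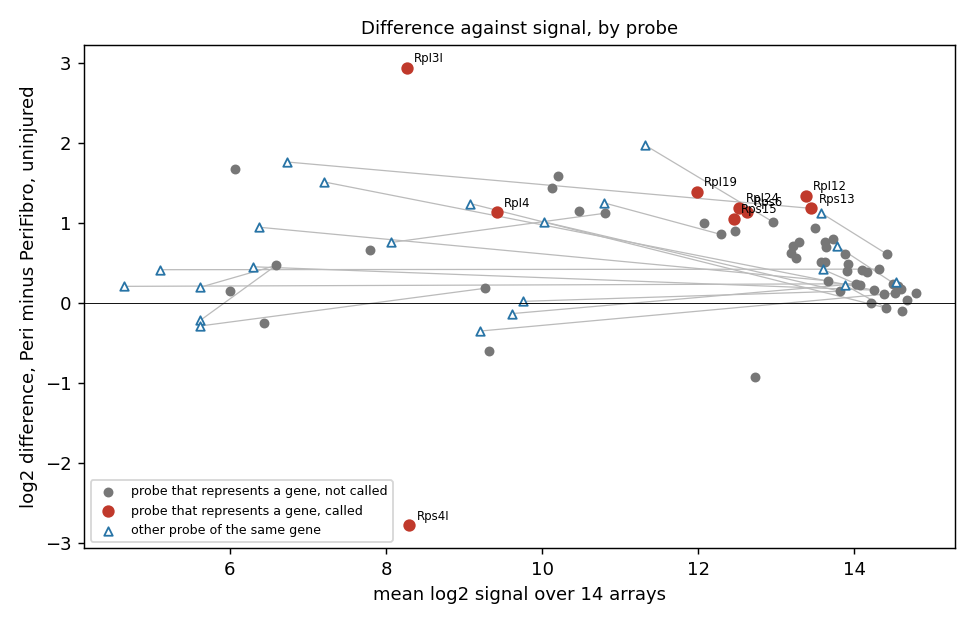
Log2 difference between uninjured Peri and PeriFibro cells against the mean log2 signal over 14 arrays, for the probes that represent the 57 genes (circles) and 22 other probes of the same genes (triangles, joined to their gene). Differences of the 17 brightest genes lie between -0.11 and 0.61, while Rpl3l (2.94) and Rps4l (-2.78) are the extremes.

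The paralogs departed from the subunit genes in both directions. Rpl3l, the striated muscle paralog of Rpl3 (chr17:24727826-24736143), had 9.68 and 9.57 in uninjured Peri against 6.10 and 7.26 in uninjured PeriFibro cells. This was the highest difference of any member (2.94 ± 0.75, SE; 7.69-fold, adjusted p = 0.011, limma), while Rpl3 itself had 13.88 and 13.86 against 13.25 and 13.47 (0.51, adjusted p = 0.12, limma). Uninjured Fibro cells had Rpl3l levels of 8.98 and 10.13, which overlapped those of Peri. The summed linear signal of 5 measured cardiac muscle markers was 110 to 155 in uninjured Peri, 203 to 388 in uninjured PeriFibro and 536 to 3840 in uninjured Fibro cells. Its neighbours were looked at after the Rpl3l values were seen. Msrb1 (chr17:24736593-24742778) differed in the same direction (3.68, 12.8-fold, adjusted p = 0.00064, limma), while Ndufb10 on the other side (chr17:24722060-24724423) had a difference of 0.024 (adjusted p = 0.98, limma). The part of Msrb1 transcripts in the Rpl3l signal was not tested. The Rpl3l call was lost without PeriFibro uninjured 1 (2.36, adjusted p = 0.11, limma) and without either Peri uninjured array (adjusted p = 0.059 each, limma).

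Rps4l went the other way. RefSeq lists it as a transcribed pseudogene at chr6:148354656-148355596. Its levels were 6.66 and 5.94 in uninjured Peri against 9.27 and 8.89 in uninjured PeriFibro cells (-2.78 ± 0.36, SE; 6.88-fold lower, adjusted p = 0.00014, limma), and 9.08 and 9.26 in uninjured Fibro cells. At day 7 they were 6.59 and 7.43 in Peri against 9.55, 9.15 and 9.05 in PeriFibro cells (4.74-fold lower, adjusted p = 0.00045, limma), and 8.02, 8.63 and 8.64 in Fibro cells (2.68-fold lower in Peri, adjusted p = 0.023, limma). Peri arrays were below all others, without overlap, and Rps4l was the only member called in 4 comparisons.

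The interval of Rps4l lies within the span of Tmtc1 (chr6:148232430-148444770), which was looked at after these values were seen. Tmtc1 was lower in Peri than in PeriFibro cells before injury (-1.46, adjusted p = 0.0014, limma) and at day 7 (-0.98, adjusted p = 0.011, limma). Its Peri levels were dim (4.52 and 4.24 before injury, 4.39 and 4.47 at day 7), so the size of these differences is uncertain. Against Fibro cells its differences were -0.46 before injury and -0.19 at day 7 and did not pass the test (adjusted p = 0.24 and 0.69, limma). The part of Tmtc1 transcripts in the Rps4l signal was not tested. Rps4x, the X-linked subunit gene that Rps4l resembles, had 14.43 and 14.09 in uninjured Peri against 13.76 and 13.77 in uninjured PeriFibro cells (0.49, adjusted p = 0.16, limma). The other X-linked members Rpl36a and Rpl39 differed by 0.90 and 0.39 (adjusted p = 0.08 and 0.41, limma), and in each of the 3 the groups' means spanned less than 1 log2 unit over the 6 groups.

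**Figure D4:**
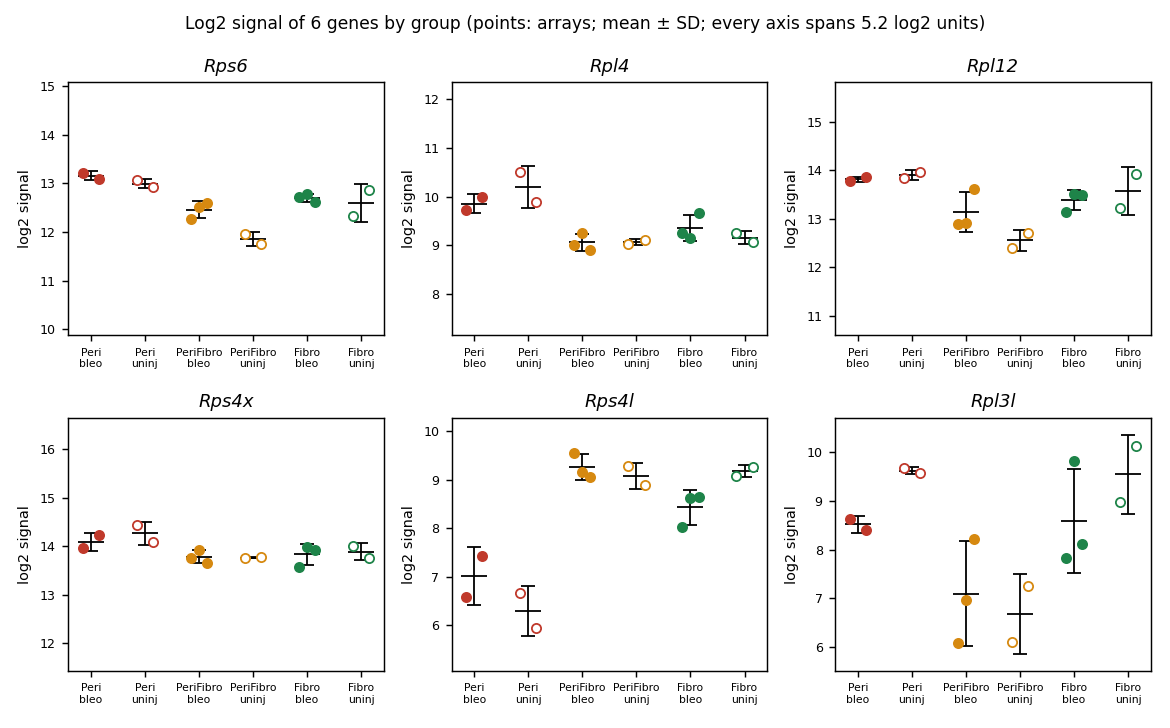
Log2 signal of 6 genes by population, with bleomycin arrays (filled) left of uninjured arrays (open) and the mean ± SD of each group. Rps6, Rpl4 and Rpl12 stood higher in uninjured Peri than uninjured PeriFibro arrays, Rps4x varied little (group means 13.77 to 14.26), Rps4l was lowest in Peri (7.01 after bleomycin) and Rpl3l lowest in PeriFibro cells (7.10 after bleomycin and 6.68 uninjured).

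Other paralogs gave differences that did not pass the test. Rps27l, a p53-responsive paralog of Rps27, had 12.21 and 11.50 in uninjured Peri against 12.93 and 12.62 in uninjured PeriFibro and 12.87 and 13.56 in uninjured Fibro cells (-1.36 against Fibro, adjusted p = 0.062, limma). Rpl22l1, the paralog of Rpl22, had 6.68 and 7.27 in uninjured Peri against 4.87 and 5.73 in uninjured PeriFibro cells (1.67, adjusted p = 0.29, limma), and Rpl22 had 9.0 and 8.95 in Peri against 9.73 and 9.43 in PeriFibro (-0.60, adjusted p = 0.2, limma). Rpl36al, an autosomal copy of the X-linked Rpl36a, differed by 0.62 (adjusted p = 0.055, limma). Rpl7l1 (0.18) and Rps19bp1 (-0.25), a binding partner of Rps19 and not itself a subunit, had smaller differences (adjusted p = 0.8 and 0.65, limma).

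Of the 5 members whose group means spanned most, Rps4l (2.96), Rpl3l (2.94) and Rpl22l1 (1.95) are paralogs, and Rps3a1 (1.58) and Rpl13a (1.44) are core subunits. Rps3a1 had 10.69 and 11.46 in uninjured Peri against 9.06 and 9.94 in uninjured PeriFibro cells (1.58 ± 0.75, SE; adjusted p = 0.15, limma). Rpl13a had 10.80 and 10.70 in uninjured Peri against 9.18 and 9.45 in uninjured PeriFibro cells (1.44 ± 0.60, SE; adjusted p = 0.11, limma). Both genes separated these groups without overlap, but in uninjured Fibro cells their 2 arrays were 9.66 and 11.44 for Rps3a1 and 9.73 and 11.32 for Rpl13a, so that the lower array was nearer to PeriFibro and the higher one nearer to Peri cells or above them.

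Peri and Fibro cells of uninjured mice differed little in the ribosomal protein genes. Rpl4 was higher in Peri (10.50 and 9.90, against 9.25 and 9.06 in Fibro; 2.06-fold, adjusted p = 0.016, limma) and Rps4l was lower, so that 1 member was called in each direction, where 8.88% of all genes were called higher and 12.8% lower. The median log2 difference was 0.057 for the 57 genes and -0.033 for all genes. It was -0.046 without Fibro uninjured 1 and 0.20 without Fibro uninjured 2, so its direction was not kept. In this comparison 7 of 7 lung epithelial and 7 of 8 endothelial markers were called lower in Peri cells and 6 of 6 T and NK cell markers higher, and their part in the result was not tested. Peri arrays lay above Fibro arrays without overlap for 12 members (28.4% of all genes) and below for 5 (31.5% of all genes). The call of Rpl4 was lost without Peri uninjured 1 (0.74, adjusted p = 0.13, limma) and without Fibro uninjured 2 (0.95, adjusted p = 0.088, limma). The second probe of Rps13 (mean level 6.73) was higher in Peri (7.69 and 8.58, against 6.76 and 4.98 in Fibro; adjusted p = 0.029, limma over all kept probes), whereas its representing probe differed by 0.16.

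PeriFibro cells were below Fibro cells before injury for 53 of 57 members, with a median log2 difference of -0.44, against 0.058 for all genes. Above 0 were 7.02% of members, against 54.7% of all genes. No member was called in either direction, where 0.233% of all genes were called higher and 2.11% lower, and 12 members had an unadjusted p under 0.05 (21.1%, against 15.9% of all genes, limma). PeriFibro arrays lay below Fibro arrays without overlap for 37 members (20.9% of all genes) and above for 0 (27.1% of all genes). Rpl12 had 12.41 and 12.71 in PeriFibro against 13.22 and 13.92 in Fibro cells (-1.01 ± 0.31, SE; adjusted p = 0.14, limma), and Rpl3l differed by -2.87 (adjusted p = 0.08, limma). Without Fibro uninjured 2 the median difference was -0.24. Lung epithelial markers were lower in PeriFibro than in Fibro cells (median -4.71, 6 of 7 called; summed signal 3190 to 4930 in PeriFibro and 46700 to 52400 in Fibro), as were 3 of 7 neutrophil markers (median -3.08; 1700 to 1890 in PeriFibro and 14300 to 18600 in Fibro) and 3 of 6 T and NK cell markers (median -2.36; 383 to 452 in PeriFibro and 1460 to 3280 in Fibro). Endothelial markers went the other way (summed signal 75100 to 82400 in PeriFibro and 27600 to 52600 in Fibro). So did pericyte markers (3230 to 4630 in PeriFibro and 1200 to 2880 in Fibro) and fibroblast markers (2240 to 2490 and 1620 to 1630). The mitochondrial ribosomal protein genes had a median of -0.40, with 9 of 72 above 0. Their centred median was 0.641 on Fibro uninjured 2 and -0.0405 on Fibro uninjured 1. On the uninjured PeriFibro arrays it was -0.104 and -0.0365, so only Fibro uninjured 2 lay above both. The part of these markers in the result was not tested. This comparison shares its PeriFibro arrays with that of Peri and PeriFibro cells.

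At day 7 after bleomycin, fewer members separated Peri from PeriFibro cells. Rps15a was called higher, Rps4l was called lower, and 9.75% and 11.2% of all genes were called in these directions. Without a fold threshold 3 members were higher (11.1% of all genes): Rps15a, Rpl4 (9.72 and 9.99 in Peri, against 9.01, 9.26 and 8.91 in PeriFibro; 0.79, adjusted p = 0.037, limma) and Rps6 (13.22 and 13.09 in Peri, against 12.27, 12.52 and 12.59 in PeriFibro; 0.70, adjusted p = 0.036, limma). The median log2 difference of the members was 0.15, against -0.016 for all genes, and lay between 0.076 without PeriFibro bleomycin 1 and 0.34 without PeriFibro bleomycin 3. As before injury, 7 of 7 neutrophil and 6 of 6 T and NK cell markers were called higher and 8 of 8 endothelial markers lower in Peri cells, and their part in the result was not tested. Peri arrays lay above PeriFibro arrays without overlap for 18 members (26.1% of all genes) and below for 4 (27.5% of all genes). Those 4, Rpl22, Rps19bp1, Rps27l and Rps4l, were also the 4 that lay below without overlap before injury.

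Rps15a, a small subunit protein, had 6.93 and 6.90 in Peri against 5.97, 5.90 and 4.93 in PeriFibro cells at day 7 (1.32 ± 0.41, SE; 2.49-fold, adjusted p = 0.037, limma). Its probe was the dimmest of the members, and 14 of 26 alternative settings ended the call. The difference was 0.98 without PeriFibro bleomycin 3 (adjusted p = 0.12, limma), and the call also ended without Peri bleomycin 1 (adjusted p = 0.18) or 2 (0.13) and without any 1 of the uninjured Peri or PeriFibro arrays (0.052 to 0.053). The difference was 0.28 in the deposited normalised log2 values, under 2-fold there (adjusted p = 0.017, limma). With replicate number as a block it was 1.22 (adjusted p = 0.083, limma).

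Against Fibro cells at day 7, Peri cells had a median log2 difference of 0.11 over the members and -0.013 over all genes, and this small positive value turned to -0.031 when arrays were scaled to a common median. With single arrays left out it lay between 0.035 without Fibro bleomycin 1 and 0.18 without Peri bleomycin 1. Rps4l was the only member called, lower in Peri cells, and 0 were called higher, where 4.26% of all genes were lower and 3.27% higher. This call ended without Peri bleomycin 1 (adjusted p = 0.29, limma), without Fibro bleomycin 2 (0.062) and without Fibro bleomycin 3 (0.071), and with replicate number as a block (0.058). Between PeriFibro and Fibro cells at day 7 the median was -0.12 (0.036 for all genes), and with single arrays left out it lay between -0.25 without Fibro bleomycin 1 and 0.014 without PeriFibro bleomycin 1, so its direction was not kept. Here 0 members were called, where 6.09% of all genes were. Rpl3l (-1.49) and Rps4l (0.82) had an unadjusted p under 0.05 (limma), 3.51% of members against 21.2% of all genes.

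Bleomycin and uninjured cells of one population were compared to ask how injury changes it, with male and female mice on opposite sides. In Peri cells 0 members were called, with 0 at an unadjusted p under 0.05 (limma), where 0.595% of all genes were called and 7.01% had such a p. The median log2 difference was -0.067 (0.034 for all genes), and -0.025 without Peri bleomycin 1. Rpl22l1 had 4.70 and 5.34 in bleomycin against 6.68 and 7.27 in uninjured Peri cells (-1.95 ± 1.0, SE; adjusted p = 0.83, limma), and Rps3a1 had 9.74 and 10.04 against 10.69 and 11.46 (-1.19, adjusted p = 0.91, limma). Neither of these changes passed the test. Their bleomycin arrays lay below the uninjured ones without overlap, as for 13 members in all (22.8%, against 19.2% of all genes). Above without overlap were 3 members (5.26%, against 23.0% of all genes).

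In PeriFibro cells the members were mostly brighter after bleomycin. The median log2 difference was 0.23, against -0.032 for all genes, and 50 of 57 were above 0 (87.7%, against 46.2% of all genes). No member was called, where 0.129% of all genes were, and 4 had an unadjusted p under 0.05 (7.02%, against 6.56% of all genes, limma): Rps6, Rps2, Rpl7a and Rps15. Rps6 had 12.27, 12.52 and 12.59 in bleomycin against 11.96 and 11.75 in uninjured PeriFibro cells (0.61, adjusted p = 0.55, limma). Rpl7a had 9.94, 11.17 and 10.69 in bleomycin against 9.57 and 9.65 in uninjured PeriFibro cells (0.99, adjusted p = 0.68, limma). Bleomycin arrays lay above uninjured arrays without overlap for 16 members (11.6% of all genes). Without PeriFibro bleomycin 3, the array that stood apart, the median difference was 0.091. The mitochondrial ribosomal protein genes had a median of 0.25 in this contrast, with 60 of 72 above 0. Their centred median was 0.634 on PeriFibro bleomycin 3, and -0.148 and -0.0784 on replicates 1 and 2. On the uninjured PeriFibro arrays it was -0.104 and -0.0365, so only replicate 3 lay above both. The 7 macrophage markers had a median of 2.01 with 7 above 0 (summed signal 4410 to 10600 in bleomycin and 1520 to 3020 in uninjured PeriFibro cells) and the 8 pan-leukocyte markers 0.69 with 8 above 0 (15300 to 23500 in bleomycin and 8360 to 13500 in uninjured PeriFibro cells), none of them called (limma). Their part in the result was not tested.

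In Fibro cells 0 members were called after bleomycin, where 1.60% of all genes were. The median log2 difference was -0.083 (-0.031 for all genes), and it lay between -0.24 without Fibro uninjured 1 and -0.0027 without Fibro uninjured 2. Below 0 were 45 of 57 members, and 21.1% of members were above 0, against 47% of all genes. Rps4l alone of the members had an unadjusted p under 0.05 (1.75% of members, against 12.6% of all genes, limma). It had 8.02, 8.63 and 8.64 in bleomycin against 9.08 and 9.26 in uninjured Fibro cells (-0.74, adjusted p = 0.38, limma). Tests of whether the response to bleomycin differed between populations called 0 members in each of 3 contrasts (limma). These were Peri minus PeriFibro, Peri minus Fibro and PeriFibro minus Fibro. In this order 0, 1 and 0 members had an unadjusted p under 0.05, against 5.24%, 9.25% and 3.35% of all genes (limma). Of all genes 0% were called for Peri minus PeriFibro (652 genes had an unadjusted p under 0.05), 0.482% for Peri minus Fibro and 0.129% for PeriFibro minus Fibro. The median of the members was -0.32 for Peri minus PeriFibro, 0.050 for Peri minus Fibro and 0.33 for PeriFibro minus Fibro. For all genes it was 0.079, 0.037 and -0.014. The first and last contrasts share the PeriFibro response, whose median was 0.091 without PeriFibro bleomycin 3.

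Genes that work with the ribosomal proteins were read in uninjured Peri and PeriFibro cells from lists of the pathway, where 10.2% of all genes were called higher and 14.6% lower. The lists are short, and nothing particular to them is read from their counts. Among 9 elongation factors the median log2 difference was 0.52 and 1 was called higher, Eef1b2 (1.73, adjusted p = 0.049, limma), a nucleotide exchange factor for elongation factor 1. Among 30 measured initiation factors of 36 listed it was 0.018, with 1 called higher, Pabpc1 (1.67, adjusted p = 0.035, limma), the poly(A)-binding protein, whose own mRNA carries a terminal oligopyrimidine tract. The 8 listed nascent chain factors and other genes with such mRNAs had a median of 0.63 and 0 called. In this comparison the medians of elongation factors and terminal oligopyrimidine mRNAs were near that of the ribosomal proteins. That of initiation factors was near that of all genes. Between uninjured Peri and Fibro cells the 3 lists had medians of 0.36, 0.18 and 0.21 in this order. The ribosomal proteins had 0.057 there and all genes -0.033, so the likeness was not kept.

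For the production of ribosomes, 15 of 19 listed genes of RNA polymerase I and rDNA transcription had a median of 0.67 with 2 called higher, Taf1c (1.13) and Taf1d (1.55), subunits of the promoter selectivity factor. Of 66 assembly and rRNA processing factors 55 were measured, with a median of 0.25 and 2 called higher, Rrp12 (1.47) and Noc4l (1.10). At day 7 the assembly factors Noc2l (1.15) and Noc4l (1.06) were higher and Pes1 (-1.09) was lower in Peri than in PeriFibro cells. The 72 mitochondrial ribosomal protein genes had a median of -0.15 with 2 called lower before injury (Mrpl27, -1.6, and Mrpl51, -1.42) and -0.53 with 8 called lower at day 7, where 11.2% of all genes were called lower.

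Among 19 measured regulators of 22 listed the median was -0.0068, with 4 called higher and 1 called lower in Peri cells before injury. Mxd1, a Myc antagonist, was the highest (3.93, 15.3-fold, adjusted p = 0.0039, limma). Eif4ebp1, the translation repressor inactivated by mTORC1, was 2.5-fold higher (adjusted p = 0.0054, limma), and Tsc1, which restrains mTORC1, was 2.45-fold higher (adjusted p = 0.0068, limma). Myc, which raises transcription of ribosome genes, had 5.61 and 5.23 in Peri against 4.41 and 4.30 in PeriFibro (2.10-fold, adjusted p = 0.01, limma). These PeriFibro levels lay below the 4.70 at which Rpl22l1 was not detected on Peri bleomycin 1, so the fold is uncertain. Akt1s1, an inhibitory partner of mTORC1, was lower in Peri (-1.03, adjusted p = 0.022, limma). Both activators and repressors of ribosome synthesis were thus among the called regulators. At day 7 the calls were Mxd1 (3.62), Myc (1.34) and Tsc1 (1.01), each above its PeriFibro level in Peri cells. The PeriFibro levels of Myc were again dim (4.85, 4.39 and 4.39). Larp1 itself differed by 0.74 before injury and did not pass the test (adjusted p = 0.4, limma).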

How the data were processed

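RNA of the sorted cells was hybridised to 14 single-colour Illumina MouseWG-6 v2.0 arrays. The authors deposited an unnormalised signal intensity per probe and array, with no earlier step described, and a detection p-value beside it. The log2 values the authors deposited had been variance-stabilised and quantile-normalised with lumi (version not stated); they rank the probes of each array as the intensities do (Spearman correlation 1) and served as an alternative. Intensities were background-corrected with neqc (limma 3.58.1, R 4.3.3; offset 16, background from detection p-values), quantile-normalised and log2-transformed. Probes were kept if detected (p under 0.05) on 2 arrays or more (24445 of 45281). Symbols came from the platform annotation: 34885 probes had 1 symbol, 18 several and 10378 none, and only the first kind was tested. Each gene is represented by its brightest kept probe on average. One linear model held all 6 groups (8 residual degrees of freedom), because 2 or 3 arrays a group hold little information on spread, with two-sided moderated tests in limma and Benjamini-Hochberg adjustment over 12444 genes. A gene was called at an adjusted p under 0.05 and 2-fold.

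The members and the gene lists were chosen with earlier results of these data known. Named are members called in a comparison without overlap of the groups, stalk and X-linked members, paralogs, the 3 brightest and 3 dimmest members, the 5 of widest range, members whose probes disagree in sign past 2-fold, and up to 4 called genes of each list; a member or gene beyond these was chosen after its values were seen. The number of arrays, and no read depth, limits the precision. Slides are not identified, so no slide term was fitted. The model was tested on simulated data. Alternatives were other normalisations, filters, probe rules, models and arrays left out. Promoter sequences are RefSeq's for GRCm38.p6.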

Additional observations from a re-analysis of the deposited data

Results flagged for a closer look

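Rps15a and Rps19 moved in opposite directions after bleomycin in a pair of populations on every array. For Rps15a the response of Peri cells exceeded that of PeriFibro cells by 1.17 log2 units, with bleomycin levels above the uninjured ones in Peri cells (6.93 and 6.90, against 6.21 and 6.46) and below them in PeriFibro cells (5.97, 5.90 and 4.93, against 6.03 and 6.34). For Rps19, a small subunit protein mutated in Diamond-Blackfan anaemia, the response of PeriFibro cells exceeded that of Fibro cells by 0.527 log2 units (limma, adjusted p = 1). Bleomycin levels of Rps19 were above the uninjured ones in PeriFibro cells (14.22, 14.25 and 14.60, against 13.98 and 14.06) and below them in Fibro cells (14.18, 14.27 and 14.32, against 14.40 and 14.50). Neither difference passed the test between populations, and such opposite moves were seen for 3.82% of all genes in the comparison of Peri with PeriFibro cells and 0.723% in that of PeriFibro with Fibro cells.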

How the results depend on the processing

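Counts called and medians were compared over 14 alternatives and 14 fits that each left out 1 array, 570 values in all. Medians were not taken for adjusted p alone or for a trended and robust variance. Of the 570 values, 528 stayed within 1.5 times the count or within 0.205 log2 units of the median, and 42 moved further. Many of the 528 could not move, since omitting an array outside the compared groups leaves a median unchanged. A median near 0 could also change sign within 0.205 log2 units. For uninjured Peri and Fibro cells it went from 0.0572 to -0.0457 without Fibro uninjured 1. No called gene changed sign. The cause of the moves was not tested.

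For uninjured Peri and PeriFibro cells the 9 calls became 4 with median scaling, 15 with only the compared groups in the model and 14 without the 3 arrays that stood apart, and ranged from 3 to 10 with single arrays left out. For uninjured Peri and Fibro cells the 2 calls became 1 with the deposited normalised values, without background correction, with median scaling and with only the compared groups, and ranged from 1 to 3. For uninjured PeriFibro and Fibro cells 0 became 1 without the 3 arrays (0 to 1 with single arrays left out). For Peri and PeriFibro cells at day 7 the 2 calls became 1 with the deposited values, without background correction, with an offset of 50, without a detection filter, with only the compared groups and with the replicate block, and 4 by adjusted p alone (1 to 2). For Peri and Fibro cells at day 7 the 1 call became 0 with the deposited values, without background correction, with only the compared groups and with the replicate block, and 2 with array weights (0 to 2). For PeriFibro and Fibro cells at day 7, 0 became 2 with array weights and 1 without the 3 arrays.

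Median scaling moved the median of the members to 0.876 for uninjured Peri and PeriFibro cells and to -0.858 for uninjured PeriFibro and Fibro cells, and the median of all genes to -0.123 for bleomycin PeriFibro cells and -0.107 for bleomycin Fibro cells. Whether replicate numbers pair the arrays could not be decided. Deviations of same-numbered arrays correlated at -0.441 to 0.686 (median 0.0272, 31 pairs, 10 over 0.1). These pairs also set bleomycin arrays of male mice against uninjured arrays of female mice, which cannot come from 1 animal. The replicate block moved no other count beyond 1.5 times. Rps15 kept its call in 13 of 26 settings, Rps15a in 12, and Rps4l against PeriFibro cells in 26.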
